A study of Homo sapiens with 16 samples.

Results

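The 8 genes described here, *GDF15*, *CSPG4*, *MUC5AC*, *INKA2*, *UNC13A*, *IL21R*, *EPHA2* and *NECTIN4*, were selected on the increase of their RNA after PARP inhibition in MUTZ-3 cells. They are 8 of the 60623 genes in the count tables, and each symbol stood on a single row. The question was which of them were also higher after knockdown of *EVI1*, the oncogene that inv(3) places under a distant enhancer in this AML cell line. The PARPi experiment has 10 libraries. MUTZ-3 cells were left untreated (0 h), or were kept for 12, 24 or 48 h with the vehicle DMSO, with olaparib at 10 µM or with talazoparib at 1 µM. In the knockdown experiment, the pLKO.1 vector carried the non-targeting control SHC002 (NTC), shEVI1-2531 or shEVI1-2532, and cells were harvested at day 3 and day 6, which gave 6 libraries. All knockdown libraries, NTC included, came from cells with lentivirus and puromycin, and all cells grew with GM-CSF and medium conditioned by 5637 bladder cancer cells. Each condition was sequenced once, and all libraries come from 1 cell line.

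Raw counts per gene were analysed, with 55999673 to 72681943 counts per library in the PARPi experiment and 95523038 to 120716213 in the knockdown experiment. A level is given as CPM, counts relative to the TMM-scaled library total within each experiment, and the smallest level that 3 counts can show was 0.0413 to 0.0536 CPM in the first and 0.0249 to 0.0314 CPM in the second. *EVI1* (listed as *MECOM*) was at 40.6 and 37.2 CPM with NTC at day 3 and day 6, at 13.2 and 17.5 CPM with shEVI1-2531 and at 5.14 and 4.31 CPM with shEVI1-2532, so its level followed the labels. In the PARPi experiment it was at 28.3 CPM in the untreated library and at 49.0 to 61.7 CPM with DMSO. It was at 44.4 and 44.8 CPM after 12 h of olaparib and talazoparib, and at 23.4 and 10.0 CPM after 48 h. The mean effect of both inhibitors on it against DMSO was −0.92 on the log2 scale. It did not pass an adjusted p of 0.05 (0.0972 by the quasi-likelihood test of edgeR). All 8 myeloid markers, such as *PTPRC* and *SPI1*, had counts in the libraries, while *CD34* was at 289 and 644 CPM with NTC and at 4.58 and 3.61 CPM with shEVI1-2532. In bulk RNA, fewer cells of a kind and less RNA per cell cannot be told apart.

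PARP inhibitors such as olaparib and talazoparib block the enzymes that add ADP-ribose chains at DNA breaks and hold PARP1 on the DNA. The lesions that follow in replicating cells activate checkpoint signaling and p53. The selected genes have no single function in common. *GDF15* encodes a secreted cytokine of the TGF-β superfamily that is known for its response to p53 and to ATF4 in stressed cells. *EPHA2*, *NECTIN4*, *CSPG4* and *IL21R* encode proteins of the cell surface, *MUC5AC* a secreted gel-forming mucin, *INKA2* an inhibitor of the kinase PAK4, and *UNC13A* a priming factor of synaptic vesicles.

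Because the inhibitor libraries chose the genes, their values against DMSO are a description and carry no test. In all 8 genes, each of the 6 inhibitor libraries was above each of the 3 DMSO libraries. Of all 17218 genes tested in this experiment, 7.92% met the same condition. In a fit with the time points as blocks, the mean effect of both inhibitors on the log2 scale was 4.15 for *GDF15*, 3.84 for *CSPG4*, 3.07 for *NECTIN4*, 3.04 for *UNC13A*, 2.98 for *MUC5AC*, 2.28 for *EPHA2*, 1.76 for *IL21R* and 1.57 for *INKA2*. By the size of this effect *GDF15* ranked 5 and *CSPG4* 10 of the 17218 genes, whereas *INKA2* ranked 356. Ordered by the p of the fit, all 8 stood within the first 15 genes, with *GDF15* first, *CSPG4* second and *INKA2* at 4.

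**Figure D1:**
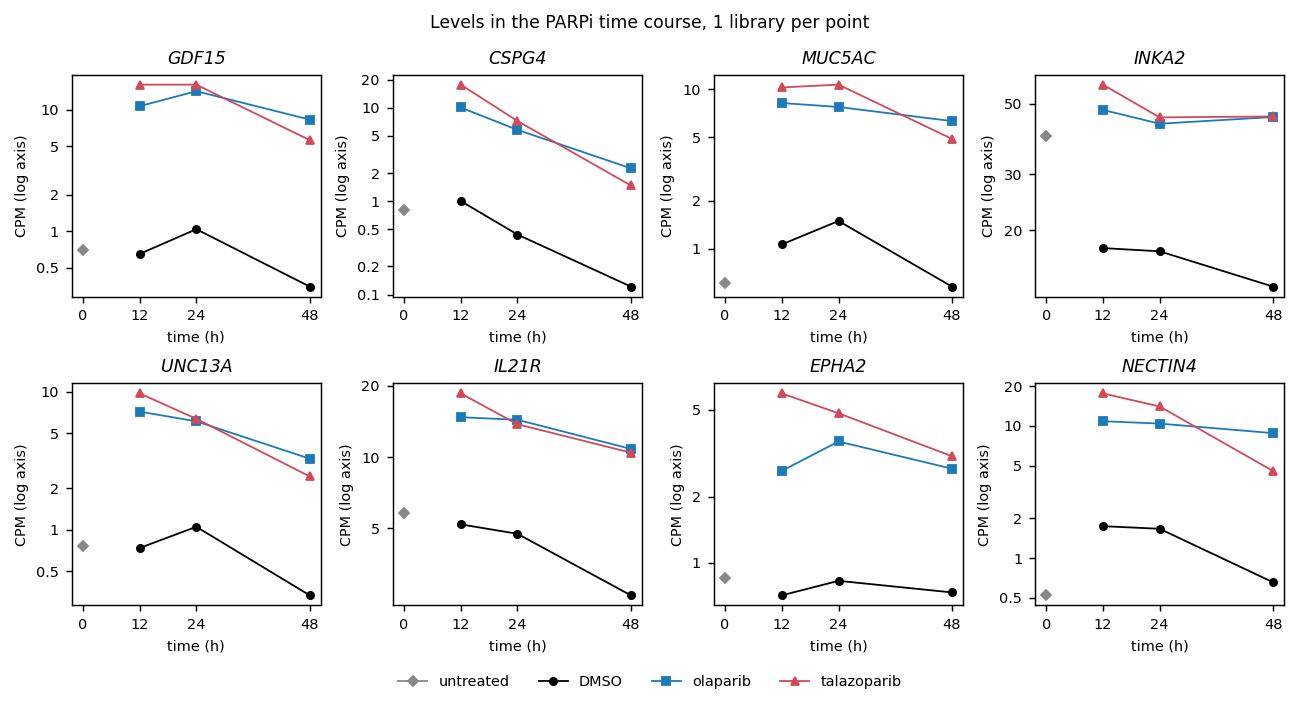
Levels of the 8 genes (CPM after TMM scaling, log axis) against time in hours, with 1 library per point, for untreated cells, DMSO, olaparib and talazoparib. Every inhibitor point lies above every DMSO point in its panel, and in the panel of *INKA2* the untreated library, at 39.5 CPM, lies nearer to the inhibitor points than to the DMSO points.

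*GDF15* (ENSG00000130513, chr19:18374731-18389176 on the plus strand of GRCh38) was at 0.650, 1.04 and 0.350 CPM with DMSO at 12, 24 and 48 h. With olaparib it was at 10.7, 14.2 and 8.28 CPM, and with talazoparib at 16.1, 16.1 and 5.61 CPM. These levels were 13.7-fold to 24.7-fold above DMSO of the same hour, and the lowest of the 6 log2 ratios, olaparib at 24 h, was 3.77 (95% exact conditional binomial interval 3.44 to 4.12, for counting error only). In the knockdown experiment, *GDF15* was at 0.325 and 0.224 CPM with NTC at day 3 and day 6, at 2.18 and 1.48 CPM with shEVI1-2531 and at 2.26 and 0.543 CPM with shEVI1-2532. All 4 shEVI1 libraries were above both NTC libraries, and that of shEVI1-2532 at day 6, with 51 counts, was the lowest of them. The share of all genes without overlap of shEVI1 and NTC libraries was not counted, here or for the genes below. It rose by 2.76 on the log2 scale (standard error 0.40) with shEVI1-2531 and by 2.16 (0.40) with shEVI1-2532, with adjusted p = 0.000681 and 0.00118 (quasi-likelihood test of edgeR, Benjamini-Hochberg over all genes).

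Of the cell surface genes, *EPHA2* (ENSG00000142627, chr1:16124337-16156069, minus strand), a receptor tyrosine kinase for ephrin-A ligands, was at 0.709, 0.826 and 0.731 CPM with DMSO at 12, 24 and 48 h. It was at 2.63, 3.58 and 2.69 CPM with olaparib and at 5.95, 4.83 and 3.07 CPM with talazoparib. No inhibitor level was near the DMSO levels, and the ratios ran from 3.68-fold to 8.39-fold. With NTC it was at 0.800 and 0.964 CPM at day 3 and day 6, with shEVI1-2531 at 1.31 and 2.06 CPM, and with shEVI1-2532 at 1.07 and 1.21 CPM. It rose with shEVI1-2531 by 0.92 on the log2 scale (standard error 0.28, adjusted p = 0.0400 by edgeR), a call that 7 of 14 alternatives lost, among them those without either NTC library or without shEVI1-2531 at day 6 (adjusted p = 0.129, 0.161 and 0.234 in edgeR's test). With shEVI1-2532 the value was 0.38 (95% interval −0.24 to 0.99, adjusted p = 0.309 in the same edgeR test). The effects of the shRNAs differed by −0.54 (95% interval −1.15 to 0.06, adjusted p = 0.183 by edgeR), so a difference between them was not shown.

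*NECTIN4* (ENSG00000143217, chr1:161070998-161089558, minus strand), an adhesion molecule of epithelia, was at 1.74, 1.67 and 0.655 CPM with DMSO. With olaparib it was at 10.9, 10.4 and 8.83 CPM and with talazoparib at 17.7, 14.1 and 4.56 CPM, which is 6.24-fold to 13.5-fold above DMSO of the same hour. The NTC libraries lay apart, at 1.26 CPM on day 3 and 0.401 CPM on day 6. It was at 2.56 and 1.81 CPM with shEVI1-2531 and at 1.95 and 1.16 CPM with shEVI1-2532, so that the shEVI1-2532 library of day 6 lay below the NTC library of day 3. *NECTIN4* rose with both shRNAs, by 1.55 (standard error 0.32) and 1.02 (0.32) on the log2 scale, with adjusted p = 0.00591 and 0.0231 by the quasi-likelihood test of edgeR. Without the NTC library of day 6 neither call held, with log2 fold changes of 1.12 and 0.59 and adjusted p = 0.0567 and 0.206 by edgeR. The call with shEVI1-2532 was also lost without its day 6 library (0.88, adjusted p = 0.0874 by edgeR).

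*CSPG4* (ENSG00000173546, chr15:75674322-75712848, minus strand) encodes the proteoglycan NG2, a surface marker of pericytes, melanoma and some acute leukemias. Its DMSO levels fell with time in culture, 1.00, 0.440 and 0.122 CPM at 12, 24 and 48 h, with 8 counts left in the last of them. The inhibitor levels fell too, from 10.1 to 5.80 and 2.25 CPM with olaparib and from 17.7 to 7.21 and 1.47 CPM with talazoparib. The ratio to DMSO of the same hour therefore stayed between 10.0-fold and 18.5-fold while the level after 48 h was at most 2.25 CPM. With NTC *CSPG4* was at 0.578 and 0.486 CPM at day 3 and day 6, with shEVI1-2531 at 0.495 and 0.978 CPM, and with shEVI1-2532 at 0.330 and 0.107 CPM. Both shEVI1-2532 libraries were below both NTC libraries, whereas the shEVI1-2531 libraries stood on either side of them.

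With neither shRNA did *CSPG4* pass an adjusted p of 0.05 in edgeR's test. The log2 fold change was 0.50 with shEVI1-2531 (95% interval −0.51 to 1.51, adjusted p = 0.506 by edgeR) and −1.30 with shEVI1-2532 (−2.42 to −0.19, adjusted p = 0.0603 by edgeR). The value for shEVI1-2532 passed the threshold in 6 of 14 alternatives, always in the lower direction, including those without its day 3 library (−2.51, adjusted p = 0.00107 by edgeR) or without the shEVI1-2531 library of day 3 or of day 6 (−1.39 and −1.40, adjusted p = 0.00635 and 0.00402 by edgeR). Pseudogenes of *CSPG4* such as *CSPG4P10* and *CSPG4P12* are near-identical to it in part, so that reads can be split between them. *CSPG4P10* had 6 to 42 counts per library and none of the others more than 15.

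*IL21R* (ENSG00000103522, chr16:27402174-27452042, plus strand) encodes the receptor chain that binds IL-21 and pairs with the common γ chain. It was at 5.20, 4.74 and 2.60 CPM with DMSO at 12, 24 and 48 h, at 14.8, 14.4 and 10.8 CPM with olaparib and at 18.6, 13.8 and 10.4 CPM with talazoparib. The ratios to DMSO of the same hour were 2.84-fold to 4.16-fold, without overlap between inhibitor and DMSO levels. In the knockdown experiment its level was 2.28 and 4.09 CPM with NTC at day 3 and day 6, 5.05 and 7.34 CPM with shEVI1-2531, and 7.37 and 13.4 CPM with shEVI1-2532. All shEVI1 libraries were above both NTC libraries. *IL21R* rose by 0.99 (standard error 0.20) with shEVI1-2531 and by 1.70 (0.20) with shEVI1-2532 on the log2 scale, with adjusted p = 0.00517 and 4.04e-05 by the quasi-likelihood test of edgeR. The antisense gene *IL21R-AS1* had at most 4 counts in any library.

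*MUC5AC* (ENSG00000215182, chr11:1157953-1201138, plus strand) was at 1.06, 1.49 and 0.579 CPM with DMSO at 12, 24 and 48 h. It reached 8.18, 7.73 and 6.30 CPM with olaparib and 10.2, 10.7 and 4.88 CPM with talazoparib, ratios of 5.18-fold to 10.9-fold. With NTC it was at 0.396 and 0.231 CPM at day 3 and day 6, with shEVI1-2531 at 1.70 and 1.18 CPM, and with shEVI1-2532 at 1.83 and 0.916 CPM. All 4 shEVI1 libraries were above both NTC libraries. *MUC5AC* rose by 2.22 (standard error 0.31) and 2.10 (0.31) on the log2 scale with shEVI1-2531 and shEVI1-2532, with adjusted p = 0.000510 and 0.000200 by the quasi-likelihood test of edgeR. These calls held in all 14 alternatives for each shRNA, with log2 fold changes of 1.80 to 2.41.

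*UNC13A* (ENSG00000130477, chr19:17601328-17688365, minus strand), a gene best known from neurons, was at 0.738, 1.05 and 0.335 CPM with DMSO. With olaparib it was at 7.20, 6.12 and 3.28 CPM at 12, 24 and 48 h and with talazoparib at 9.76, 6.38 and 2.44 CPM, so that the highest level of either inhibitor was at 12 h and the lowest at 48 h. The ratios ran from 5.81-fold to 13.2-fold. In the knockdown experiment it had 21 to 59 counts per library, and its level was 0.230 and 0.162 CPM with NTC, 0.303 and 0.489 CPM with shEVI1-2531, and 0.546 and 0.245 CPM with shEVI1-2532. Every shEVI1 library was above both NTC libraries, but shEVI1-2532 at day 6 (0.245 CPM, 23 counts) was close to NTC at day 3 (0.230 CPM, 29 counts). The log2 fold changes of 1.08 (95% interval 0.02 to 2.13) and 0.98 (−0.08 to 2.05) had adjusted p = 0.153 and 0.128 by the quasi-likelihood test of edgeR. Without the library of its own group that lay closest to NTC, each passed the threshold (1.77 without shEVI1-2531 at day 3 and 1.53 without shEVI1-2532 at day 6, adjusted p = 0.0325 and 0.0372 by edgeR).

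*INKA2* (ENSG00000197852, chr1:111680630-111755824, minus strand) was at 17.6, 17.2 and 13.3 CPM with DMSO at 12, 24 and 48 h, at 47.8, 43.3 and 45.4 CPM with olaparib and at 57.4, 45.3 and 45.6 CPM with talazoparib. The ratios to DMSO lay between 2.52-fold and 3.43-fold. With NTC it was at 16.6 and 13.8 CPM at day 3 and day 6, with shEVI1-2531 at 26.7 and 30.5 CPM, and with shEVI1-2532 at 53.4 and 40.7 CPM, an order in which no groups overlapped. *INKA2* rose by 0.92 (standard error 0.18) with shEVI1-2531 and by 1.63 (0.18) with shEVI1-2532 on the log2 scale, with adjusted p = 0.00407 and 2.46e-05 by the quasi-likelihood test of edgeR. The span given in the files overlaps *RAP1A* and *DDX20* on the opposite strand, and the strand setting of the counting is not given in the sources used here. *RAP1A*, a small GTPase gene with up to 15027 counts, also rose with both shRNAs (0.70 and 1.13, adjusted p = 0.00309 and 3.42e-05 by edgeR), and the part of such reads in the value of *INKA2* was not tested.

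**Figure D2:**
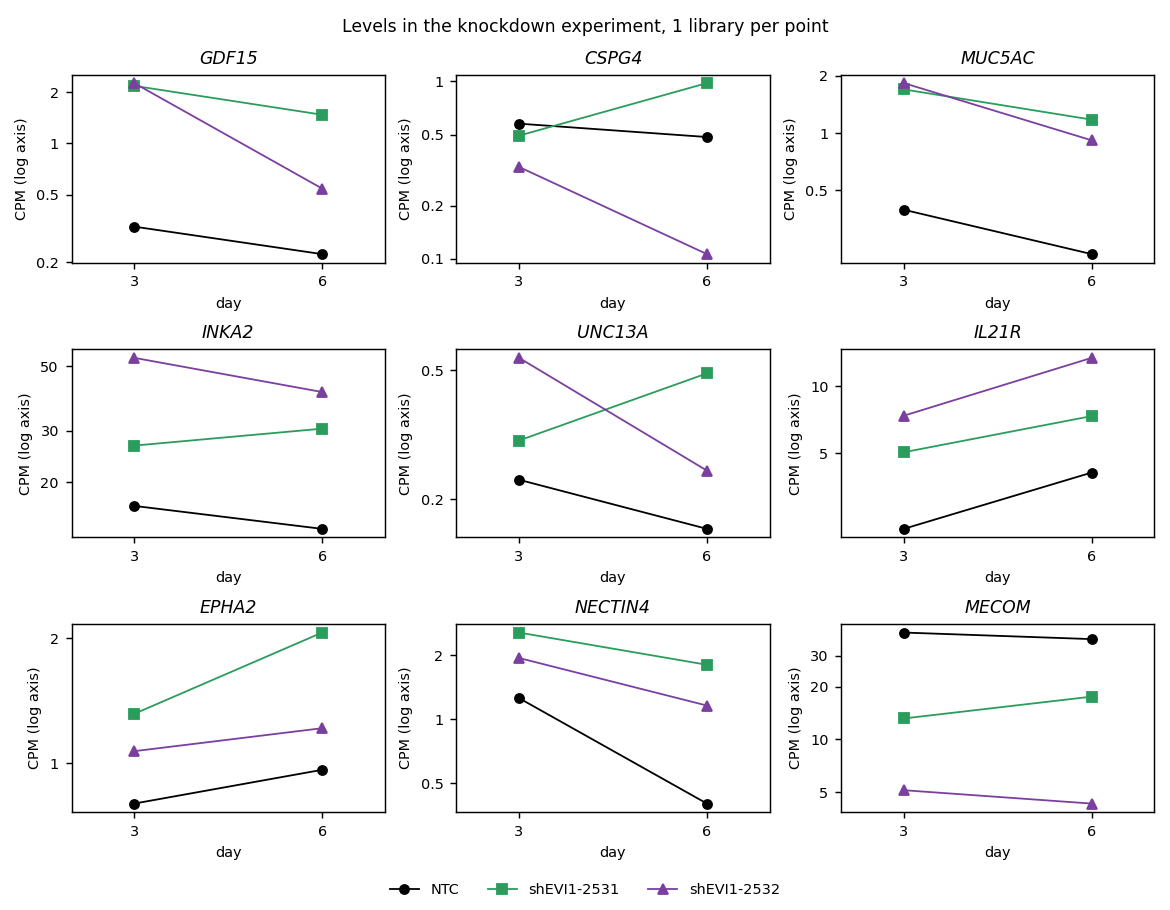
Levels of the 8 genes and of *MECOM* (CPM after TMM scaling, log axis) at day 3 and day 6, with 1 library per point, for NTC, shEVI1-2531 and shEVI1-2532. *INKA2* and *IL21R* lie highest with shEVI1-2532, whereas *CSPG4* lies lowest there, at 0.330 and 0.107 CPM.

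Against the untreated library instead of DMSO, the ratios of *INKA2* were close to 1. In the untreated library at 0 h *INKA2* was at 39.5 CPM, above all 3 DMSO libraries, and its inhibitor levels were only 1.10-fold to 1.45-fold above this library. DMSO at 12, 24 and 48 h stood at log2 ratios of −1.17, −1.20 and −1.57 to the untreated library for *INKA2*. For the other 7 genes the inhibitor libraries were at least 1.80-fold above the untreated library, up to 33.9-fold for *NECTIN4*, 23.1-fold for *GDF15* and 21.8-fold for *CSPG4*. *CSPG4* had the widest range, since its level with talazoparib at 48 h was 1.81-fold that of the untreated library and 12.1-fold that of DMSO. This comparison was added after the values were seen, and no treated library shares the hour of the untreated one. At 48 h the DMSO levels of *GDF15*, *CSPG4*, *UNC13A*, *IL21R* and *INKA2* were below the untreated library, with 95% counting intervals of the log2 ratio that ended below 0.

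With both shRNAs, 5 of the 8 genes rose with an adjusted p below 0.05 by the quasi-likelihood test of edgeR, namely *GDF15*, *MUC5AC*, *INKA2*, *IL21R* and *NECTIN4*. With both shRNAs as 1 group, *MUC5AC* alone of the 8 passed (adjusted p = 0.0391 by edgeR), and *GDF15* (0.0624), *IL21R* (0.0828), *INKA2* (0.0843) and *NECTIN4* (0.119) did not. Without day in the model *INKA2* (0.101), *NECTIN4* (0.193), *IL21R* (0.246) and *EPHA2* (0.202) did not pass with shEVI1-2531, nor did *NECTIN4* (0.247) with shEVI1-2532. With shEVI1-2531 the 5 genes and *EPHA2* made 6 of 8 in the model with both shRNAs apart and day as a term, beside 9.49% of all 18606 genes tested that were higher and 7.9% that were lower. With shEVI1-2532 there were 5 of 8, beside 21.2% of all genes higher and 19.9% lower. The median log2 fold change of the 8 genes was 1.04 and 1.32, against 0.01 and −0.000308 over all genes. No gene of the 8 was lower at this threshold with either shRNA in edgeR's test or in DESeq2, and at an unadjusted p under 0.05 *CSPG4* was the 1 gene that was lower, with shEVI1-2532. *CSPG4* and *UNC13A* passed with neither shRNA, which does not show that they did not change.

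**Figure D3:**
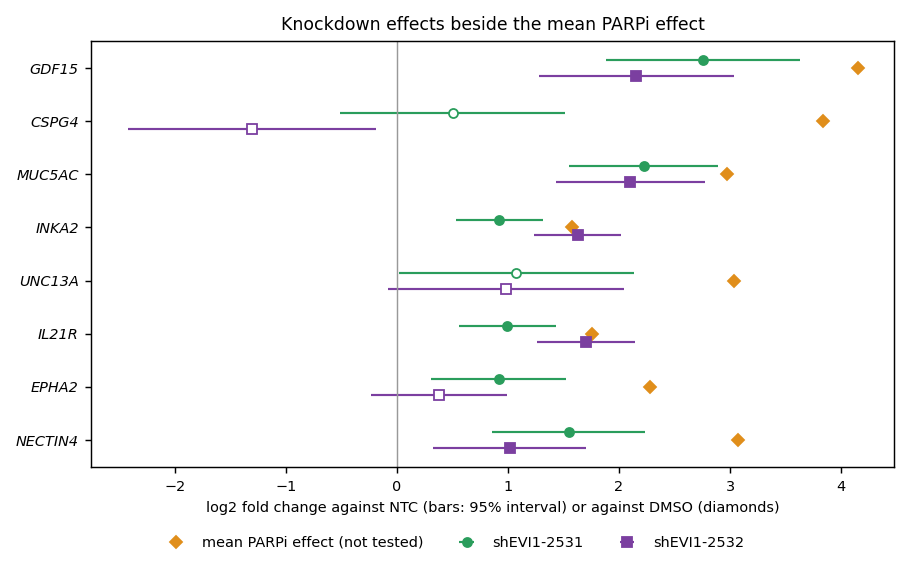
Log2 fold change against NTC for each gene with shEVI1-2531 (circles) and shEVI1-2532 (squares), with 95% intervals of edgeR's fit and filled symbols where the adjusted p was under 0.05. Diamonds give the mean PARPi effect against DMSO, which chose the genes and was not tested. The symbols of *GDF15* stand at 2.76 and 2.16 beside a diamond at 4.15, those of *INKA2* at 0.92 and 1.63 beside 1.57, and those of *CSPG4* at 0.50 and −1.30 beside 3.84.

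The size of the change with inhibitor and with knockdown is given side by side, since the experiments have different controls and the difference was not tested. For *INKA2* and *IL21R* the log2 fold changes with shEVI1-2532, 1.63 and 1.70, were near the mean PARPi effects of 1.57 and 1.76. With shEVI1-2531 the log2 fold changes were smaller, 0.92 and 0.99. For *GDF15* they were 2.76 and 2.16 with the shRNAs beside 4.15, and for *MUC5AC* 2.22 and 2.10 beside 2.98. At 12 h the log2 ratio of *MECOM* was −0.14 with olaparib and −0.13 with talazoparib. In these libraries the 8 genes were 2.72-fold to 16.4-fold and 3.26-fold to 24.7-fold above DMSO. A link between the levels of *MECOM* and of the 8 genes was not tested. In the shEVI1-2532 libraries *MECOM* was at log2 ratios of −2.98 and −3.11, and the 8 genes lay between −0.81 and 2.80 at day 3 and between −2.19 and 1.98 at day 6.

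**Figure D4:**
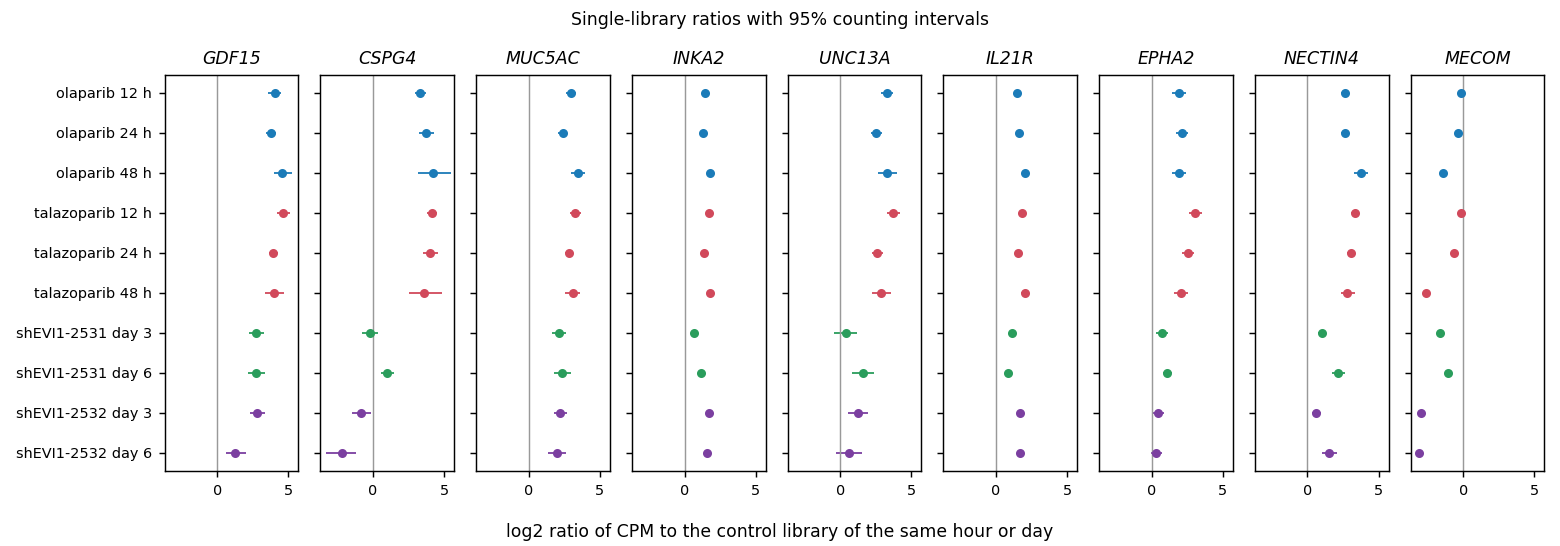
Log2 ratio of CPM in each inhibitor library to DMSO of the same hour and in each shEVI1 library to NTC of the same day, for the 8 genes and *MECOM*, with 95% exact conditional binomial intervals for counting error. All 6 inhibitor ratios are above 0 in all 8 genes. *MECOM* is near 0 at 12 h of inhibitor, at −0.14 and −0.13, and lowest with shEVI1-2532.

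The test of the shRNAs against each other passed in 3 of the 8 genes (quasi-likelihood test of edgeR), beside 24.2% of all genes tested. *INKA2* and *IL21R* were higher with shEVI1-2532 than with shEVI1-2531, by 0.70 (standard error 0.18, adjusted p = 0.0133 by edgeR) and 0.71 (0.20, adjusted p = 0.0210 by edgeR) on the log2 scale. *CSPG4* was lower, at −1.80 (standard error 0.52, adjusted p = 0.0254 by edgeR). *MECOM* itself stood at −1.70 (0.20) in this comparison. For *GDF15* the difference was −0.60 (95% interval −1.40 to 0.20), and it passed the threshold without the shEVI1-2532 library of day 3 (−1.45, adjusted p = 0.0282 by edgeR). None of the 3 calls held in each alternative that left out a library: that of *CSPG4* was lost without either day 6 library of an shRNA (−0.93 and −0.94), and that of *INKA2* without either day 3 library (0.45 and 0.53). The call of *IL21R* was lost without shEVI1-2532 at day 3 (0.80) or at day 6 (0.62), or without shEVI1-2531 at day 6 (0.52).

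Over the 10 log2 ratios to control the genes were compared by their course, as a description. Among *GDF15*, *CSPG4*, *MUC5AC*, *UNC13A*, *EPHA2* and *NECTIN4* the Pearson correlation of a pair was 0.80 to 0.95. *INKA2* and *IL21R* had 0.84 with each other and 0.31 to 0.58 with the other genes. These groups were formed after the values were seen, and ratios of the same hour or day share a control library. The 6 inhibitor ratios among the 10 are those that chose the genes as members, so that these correlations are not independent of that choice. Among 11172 genes, the gene with the course most like that of *GDF15* was *ACE* (0.96), an angiotensin-converting enzyme. That of *CSPG4* was *CCDC142* (0.97), of *MUC5AC* *METTL7A* (0.92), of *INKA2* *SNX1* (0.95), of *UNC13A* *AC034193.1* (0.96), of *IL21R* *SARAF* (0.94) and of *NECTIN4* *ZNF101* (0.97). For *EPHA2* it was *DDIT3* (0.95), the transcription factor CHOP of the ATF4 branch of the stress response.

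Promoters of the 8 genes were read from a RefSeq table (GRCh38.p14) that gives 250 bases before to 50 after a start, because all 8 genes were higher with both inhibitors. The table matched 7 of the 8 genes in 8 windows, with a pair for *INKA2*, and *MUC5AC* did not match. Both strands were searched for AP-1 (TGANTCA), the cAMP response element CRE (TGACGTC), the C/EBP-ATF composite element (TGATGCA), the zinc finger motif of EVI1 (AAGATAA), the decamer of the p53 consensus, a single repeat of the full p53 element, and the GC box (GGGCGG). The GC box was in 6 of the 8 windows, beside 45% of the 35116 windows of the table. The CRE was in the window of *EPHA2*, beside 3.45% of all, and the composite element in that of *IL21R*, beside 2.63%. AP-1, the EVI1 motif and the p53 decamer were in none of the 8, beside 7.71%, 3.26% and 6.63% of all windows, which says only that these letters are not in these windows. The 250 bases before the start are shown for the pair with an ATF-type motif and for *GDF15*, with the CRE and the composite element in capitals. The capitals of *EPHA2* hold the CRE on both strands, which overlap in a single palindrome, and *GDF15* has none of the motifs other than the GC box.
EPHA2, chr1:16156070-16156319, minus strand: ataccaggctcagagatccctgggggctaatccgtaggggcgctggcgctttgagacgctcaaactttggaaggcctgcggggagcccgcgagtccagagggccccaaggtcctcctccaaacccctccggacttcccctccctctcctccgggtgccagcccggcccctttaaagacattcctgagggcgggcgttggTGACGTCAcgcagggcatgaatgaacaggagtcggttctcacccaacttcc
IL21R, chr16:27427021-27427270, plus strand: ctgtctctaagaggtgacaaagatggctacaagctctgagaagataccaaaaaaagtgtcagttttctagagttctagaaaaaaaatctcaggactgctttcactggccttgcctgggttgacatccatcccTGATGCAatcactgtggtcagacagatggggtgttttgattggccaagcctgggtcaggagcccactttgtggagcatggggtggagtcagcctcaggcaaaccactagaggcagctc
GDF15, chr19:18385908-18386157, plus strand: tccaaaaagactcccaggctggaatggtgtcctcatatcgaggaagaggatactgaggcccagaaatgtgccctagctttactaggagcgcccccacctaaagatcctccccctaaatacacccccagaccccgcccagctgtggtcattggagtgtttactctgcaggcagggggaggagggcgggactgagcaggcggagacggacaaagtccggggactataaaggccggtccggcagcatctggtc

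Families and pathway partners of the 8 genes were counted for comparison, from lists that were made with earlier results of these data known. Of 124 relatives and partners, 61 were tested in the PARPi experiment, and 6 of them rose and 0 fell, beside 3.16% of all genes that rose and 1.01% that fell by the quasi-likelihood test of edgeR. At an unadjusted p under 0.05, 24 were higher and 5 lower, and DESeq2 called 17 higher and 3 lower. Of the TGF-β superfamily, *BMP6* (2.17, adjusted p = 0.0211 by edgeR) and *INHBA* (0.77, adjusted p = 0.0450 by edgeR) rose. The Eph receptor *EPHB3* rose by 0.55 (adjusted p = 0.0471 by edgeR). The cytokine receptors *IL9R* and *IL4R* rose by 1.06 and 0.65 (adjusted p = 0.0370 and 0.0458 by edgeR). The median over the 61 was 0.28, against −0.01 over all genes.

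After knockdown the relatives moved in both directions. With shEVI1-2531, 12 of 63 tested rose and 12 fell, and with shEVI1-2532, 16 rose and 17 fell, with median log2 fold changes of −0.17 and −0.36. Of all genes, 9.49% rose and 7.9% fell with the first and 21.2% and 19.9% with the second, so that the counts with shEVI1-2532 were near those of all genes. *INKA1*, the paralog of *INKA2*, fell by 0.93 and by 1.02 with the shRNAs (adjusted p = 0.00502 and 0.000993 in edgeR's test), opposite to *INKA2*. The ephrin ligand gene *EFNA1* was lower at −3.72 and −4.70 (adjusted p = 0.000136 and 8.69e-06 by edgeR), and the receptor *EPHB4* at −2.91 with shEVI1-2532 (adjusted p = 1.96e-06 by edgeR), while the receptor *EPHB1* rose by 2.11 with shEVI1-2531 (adjusted p = 0.000244 by edgeR). The vesicle genes *RAB27A*, *STX11* and *STXBP2* rose with both shRNAs, by 0.51 to 1.85 on the log2 scale. *JAK3*, the kinase of the common γ chain, was lower at −2.07 and *IL2RG*, which encodes that chain, at −0.62 with shEVI1-2531 (adjusted p = 8.12e-05 and 0.0319 by edgeR). The signaling genes *STAT3* and *JAK1* of the same list rose by 1.02 and 0.74 with shEVI1-2532 (adjusted p = 6.39e-05 and 0.000813 by edgeR). The receptor *IL9R*, which rose with the inhibitors, was lower with shEVI1-2532, at −0.93 (adjusted p = 0.00257 by edgeR). The mucin genes *MUC1* and *MUC4* were lower with shEVI1-2531, at −1.30 and −2.43 (adjusted p = 0.00459 and 0.0313 by edgeR), opposite in direction to *MUC5AC*. With shEVI1-2532, 0 of the 3 tested relatives of *MUC5AC* passed in either direction. With both shRNAs as 1 group, *MUC1* (−0.79), *MUC4* (−1.85), *JAK3* (−0.98) and *EPHB1* (1.34) did not pass in edgeR's test, nor did *MECOM* (−1.96).

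Of 29 genes known to be activated by p53, 27 were tested. In the mean PARPi effect 22 rose and 0 fell by the quasi-likelihood test of edgeR, with 26 higher and 0 lower at an unadjusted p under 0.05 and 24 higher and 0 lower in DESeq2. With shEVI1-2531 17 rose and with shEVI1-2532 18, and 16 genes rose in all 3 comparisons. Of all genes, 3.16% rose with the inhibitors, 9.49% with shEVI1-2531 and 21.2% with shEVI1-2532. None fell with either shRNA in edgeR's test or in DESeq2, with 1 lower at an unadjusted p under 0.05 in each. The median log2 fold changes were 0.78, 0.72 and 0.71, against −0.01, 0.01 and −0.000308 over all genes. *MDM2*, which limits p53, rose by 1.35 with the inhibitors (adjusted p = 0.00549 by edgeR), and *CDKN1A*, the cell cycle inhibitor p21, rose by 1.34 and 1.58 with the shRNAs (adjusted p = 6.17e-05 and 3.57e-06 by edgeR). *ZMAT3* rose by 3.12 with shEVI1-2532 (adjusted p = 6.05e-07 by edgeR). Without the 24 h libraries no gene passed the threshold in the PARPi experiment, although 24 of the 27 were higher at an unadjusted p under 0.05.

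**Figure D5:**
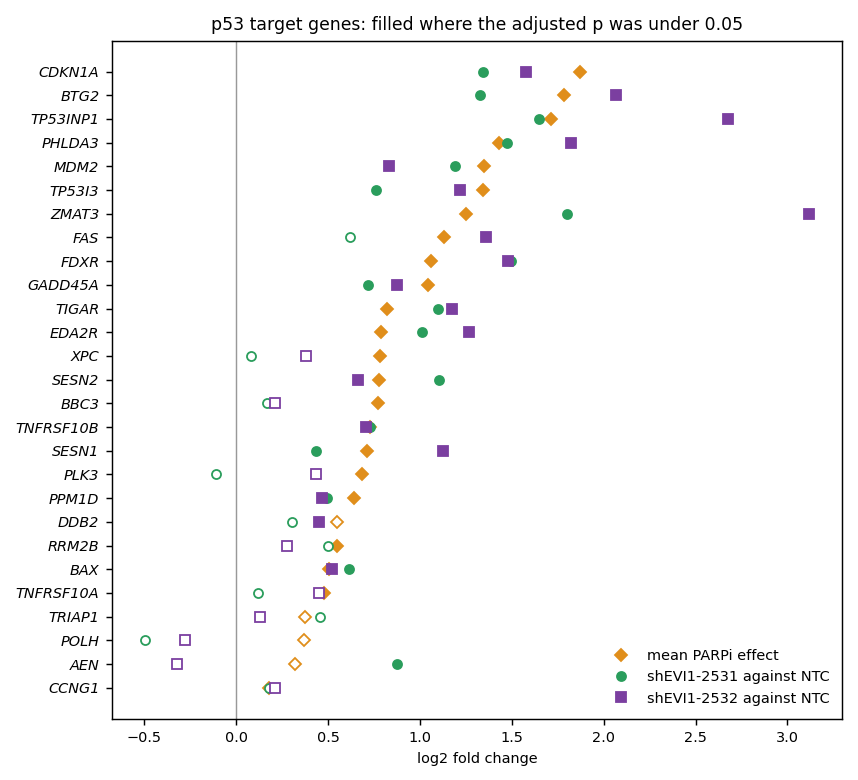
Log2 fold change of the 27 tested genes activated by p53 in the mean PARPi effect (diamonds), with shEVI1-2531 (circles) and with shEVI1-2532 (squares), filled where the adjusted p of edgeR's test was under 0.05. In all 3 comparisons 16 genes are filled, and *ZMAT3* and *TP53INP1* lie farthest right with shEVI1-2532, at 3.12 and 2.67.

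The genes of the ATF4 stress response, which also activates *GDF15*, did not move together. Of 16 tested, *SESN2*, *PPP1R15A* and *CEBPB* rose in the mean PARPi effect (0.78, 0.69 and 0.92, adjusted p = 0.0347, 0.0367 and 0.0459 by edgeR) and 0 fell, with 5 higher and 5 lower at an unadjusted p under 0.05 and 5 higher and 3 lower in DESeq2. The median log2 ratio of the list to DMSO was 0.33 to 0.62 in the libraries of 12 and 24 h and −0.50 and −0.53 in those of 48 h. With shEVI1-2531, 3 rose and 5 fell, and with shEVI1-2532, 4 rose and 8 fell. Of all genes, 3.16% rose and 1.01% fell with the inhibitors, 9.49% and 7.9% with shEVI1-2531 and 21.2% and 19.9% with shEVI1-2532. *SESN2* is also in the list of genes activated by p53. *ATF4* was lower at −1.58 and *PHGDH*, the first enzyme of serine synthesis, at −5.55 with shEVI1-2532 (adjusted p = 2.73e-06 and 4.56e-08 by edgeR). *CEBPB* rose by 1.62 with the same shRNA (adjusted p = 6.68e-06 by edgeR). *GDF15* was higher in these same libraries, and the part of ATF4 in its level was not tested.

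Within 100 kb of the 8 genes lie 97 further annotated genes, of which 12 overlap one of them. In the PARPi experiment 47 of the 97 were tested, and 5 rose and 1 fell in edgeR's test, beside 3.16% and 1.01% of all genes. *PGPEP1* and *LRRC25*, both within 5 kb of *GDF15*, rose by 0.79 and 1.52 (adjusted p = 0.0207 and 0.0450 by edgeR), and *IL4R*, next to *IL21R*, by 0.65. *F11R* and *ADAMTS4* on the side of *NECTIN4* rose by 0.74 and 0.70 (adjusted p = 0.0461 and 0.0452 by edgeR), and *IMP3* near *CSPG4* fell by 0.48 (adjusted p = 0.0394 by edgeR). With the shRNAs 51 were tested, of which 7 rose and 1 fell with shEVI1-2531 and 14 rose and 4 fell with shEVI1-2532, beside 9.49% and 7.9% of all genes with the first and 21.2% and 19.9% with the second. Of these neighbours *LRRC25*, *ELL*, *TOLLIP*, *RAP1A*, *COLGALT1*, *MAP1S* and *F11R* rose with both. The changes of *LRRC25*, a gene of myeloid cells, were 1.35 and 2.97 (adjusted p = 0.000628 and 8.29e-07 by edgeR), and those of *F11R*, which encodes a junctional adhesion molecule, 1.17 and 1.61 (adjusted p = 0.000128 and 2.87e-06 by edgeR). Overlapping genes other than *RAP1A* and *DDX20* had at most 16 counts in any library.

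Markers of other cell types were counted because *EPHA2*, *NECTIN4* and *MUC5AC* are genes of epithelia and *IL21R* is a gene of lymphocytes. Of 18 epithelial markers, *EPCAM*, *CDH1*, *KRT5*, *TP63*, *GRHL2* and *UPK1B* had at most 3 counts in every library. Of 7 tested in the knockdown experiment, 1 rose and 1 fell with shEVI1-2531, beside 9.49% and 7.9% of all genes. With shEVI1-2532, 5 rose and 1 fell, beside 21.2% and 19.9%. *KRT17*, *KRT8* and *KRT18* rose by 1.96, 1.66 and 1.45 on the log2 scale with shEVI1-2532, and *KRT7* was lower at −3.21 with shEVI1-2531. The summed level of the list was 128 to 162 CPM with DMSO, 185 to 932 with olaparib, 181 to 1047 with talazoparib, 254 to 323 with NTC, 669 to 916 with shEVI1-2531 and 967 to 1170 with shEVI1-2532. Most of it was *KRT17*, which was at 161 and 167 CPM after 12 h of inhibitor and at 903 and 1014 CPM after 48 h. The summed level of 8 T cell markers was 7.57 to 9.82 CPM with DMSO and 8.87 to 16.4 with the inhibitors. With NTC the T cell sum was 9.03 to 10.6 CPM, with shEVI1-2531 3.72 to 7.64 and with shEVI1-2532 4.42 to 4.78. The summed level of 6 B cell markers was 18.9 to 21.4 CPM with DMSO and 11.7 to 21.7 with the inhibitors, and that of 8 fibroblast markers 5.30 to 8.65 and 0.820 to 5.41. In the knockdown experiment these sums were 16.1 to 24.5 and 6.81 to 14.8 CPM with NTC and 12.5 to 16.0 and 0.543 to 2.12 CPM with the shRNAs. Of the 8 myeloid markers, 5 rose and 1 fell with each shRNA, among them *CD14*, a monocyte marker, by 4.60 and 5.14 (adjusted p = 1.9e-06 and 1.29e-07 by edgeR). The part of any of these markers in the values of the 8 genes was not tested.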

How the data were processed

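MUTZ-3 RNA was extracted with the RNeasy Plus kit and prepared with the TruSeq Stranded mRNA kit, and 100 bp paired ends were sequenced. The authors deposited raw counts per gene in 16 files. The submitters' processing notes name STAR, Picard, featureCounts and the builds hg38/GRCh38, while versions, annotation and strand setting are not given in the sources used here. Files of shEVI1-2531 carry another construct number in their names, and the label was followed. The authors also deposited TPM, computed from these counts over whole gene spans, introns included, which were not used. A gene was tested if 3 of 9 time-course or 2 of 6 knockdown libraries reached 10 counts, with edgeR 4.0.16 (TMM, quasi-likelihood, R 4.3.3) over 17218 and 18606 genes and Benjamini-Hochberg adjustment and a threshold of 0.05. The time-course model held DMSO, olaparib, talazoparib and time; the knockdown model held NTC, both shRNAs and day. Each condition has 1 library, and hour or day is a term of the model. The p-values therefore rest on how far the libraries depart from the same treatment effect at each hour or day. The residual degrees of freedom were 4 and 2. The quasi-likelihood fit of edgeR also borrows from the spread of all genes, so the tests do not rest on these degrees of freedom alone. Such p-values measure only the spread between these samples, which may be technical. Levels of single libraries used TMM factors over all 10 or 6 libraries, and intervals and floors (3 counts) cover counting error only. Alternatives were DESeq2 1.42.0, other scalings and filters, other models and left-out libraries. The genes, gene lists and tests were chosen with earlier results of these data known. Named were all 8 genes, up to 3 called genes of smallest p per list and comparison, called genes within 100 kb, the gene of most similar course (Pearson correlation, prior count 2, mean log2 CPM above 1), and *MECOM*; *DDX20* was named after its values were seen, and 1 called gene of these lists is not reported here.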

Additional observations from a re-analysis of the deposited data

Results flagged for a closer look

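For 3 of the genes the effect differed between shEVI1-2531 and shEVI1-2532 in the test of the difference itself (edgeR's quasi-likelihood test). The log2 difference was 0.70 for *INKA2* and 0.71 for *IL21R*, both higher with the shRNA that left less *EVI1*, and −1.80 for *CSPG4*, which was lower with it. In the single libraries *CSPG4* stood at log2 ratios to NTC of −0.23 and 1.01 with shEVI1-2531 and of −0.81 and −2.19 with shEVI1-2532. Each of these calls was lost when certain single libraries were left out.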

How the results depend on the processing

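No paired analysis was possible because the labels give no replicate numbers that could pair libraries, while the hours and days were blocks in the models reported. Scaling to the library total moved the median of all genes to −0.30 with shEVI1-2532, −0.16 with shEVI1-2531 and −0.11 for their difference, and the split followed: 2360 genes higher and 5956 lower against 3942 and 3706 with shEVI1-2532, and 1049 and 2270 against 1765 and 1470 with shEVI1-2531. Under it, 1 of the 8 genes was lower with shEVI1-2532 (*CSPG4*), *NECTIN4* there (adjusted p = 0.0894 by edgeR) and *EPHA2* with shEVI1-2531 (0.0859) missed the threshold, 1 gene was higher in the difference (*INKA2*), and 81 genes were lower in the mean PARPi effect. Without a filter on low counts 1 gene, *CSPG4*, was lower with shEVI1-2532, as in the fit of that shRNA and NTC alone, where 1 was lower too. Without a filter the PARPi counts were 2057 higher and 1671 lower, with at least 30 counts 353 and 112, and with DESeq2 1835 and 1639, against 544 and 174.

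Without day in the model, 1758 genes were higher and 1778 lower with shEVI1-2532 and 276 and 289 with shEVI1-2531, p53 targets higher were 10 and 6, 2 of the 8 genes were higher with shEVI1-2531, and the difference had 465 and 456 genes and 0 of the 8 in either direction (1 higher and 1 lower at an unadjusted p under 0.05). With both shRNAs as 1 group, 158 genes were higher and 150 lower, with 3 p53 targets and 1 of the 8 genes, *MUC5AC*, higher, and *NECTIN1* turned from lower to 0.22. Without time in the model, 16 genes were higher and 0 lower in the mean PARPi effect (2806 at an unadjusted p under 0.05), with 3 p53 targets. The cause was not tested.

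Leaving out 1 library at a time, the genes higher with shEVI1-2532 numbered 2747 to 4259 and the lower ones 2556 to 4220. The ranges for shEVI1-2531 were 1029 to 2058 (higher) and 786 to 1815 (lower), and for the difference 1437 to 2477 (higher) and 1412 to 2553 (lower). Of the 8 genes, 4 to 5 were higher and 0 to 1 lower with shEVI1-2532, 4 to 7 higher and 0 lower with shEVI1-2531, and 0 to 2 higher and 0 to 2 lower in the difference. Leaving out 1 time point, 0 to 2082 genes were higher and 0 to 1699 lower in the mean PARPi effect, and 0 to 23 p53 targets higher. The 0 came without the 24 h libraries (2281 genes at an unadjusted p under 0.05), and without 12 h or 48 h 873 or more were higher. With scaling to the library total, the log2 ratio of *EPHA2* with shEVI1-2532 at day 6 turned from 0.33 (counting interval −0.05 to 0.71) to −0.02. With the mean of the control libraries, 45 of 80 ratios left their counting interval. A group left with 1 library was assumed to vary like the other groups. Depth limits the low genes most, such as *CSPG4* with 8 counts in DMSO at 48 h.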
